A study of Mus musculus with 4 samples.

Results

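The regions described here are 1016 stretches of open chromatin that were detected in both libraries of Ranbp2 knockout cells and in neither library of wild-type cells when all 4 peak lists were cut to the same length. They are 1016 of 19673 merged regions on chromosomes 1 to 19 and X, or 5.16%. Each deposited list was reduced to its 13877 strongest peaks by the authors' −log10 q, which is the full length of the shortest list, and peaks that overlapped by at least 1 bp were merged. The regions were thus chosen by the measured −log10 q values, so the presence and absence that define them are given as a description and carry no test. By the mirrored rule 1233 regions (6.27%) were wild-type-only, 8843 regions had a peak from all 4 libraries, and the other 8581 had some other pattern. With lists as deposited 360 regions were knockout-only.

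The data are ATAC-seq libraries of 10T1/2 cells, a mouse embryonic fibroblast line, each made from 50000 cells and read as 75 bp read pairs. The knockout group has 2 libraries of Ranbp2 knockout cells and the wild-type group has 2 libraries of cells labelled wild type at Ranbp2. The knockout line is 1 clone, expanded from a sorted cell that had received a Cas9 plasmid with a guide against Ranbp2. The labels do not say whether the wild-type cells passed through cloning, so effects of the genotype and of the clone cannot be told apart. Nothing in the labels says that replicates were separate cultures, so the spread between replicates may be technical.

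RANBP2 is a large nucleoporin on the cytoplasmic side of the nuclear pore, where it binds Ran-GTP and acts as a SUMO E3 ligase during nuclear transport. ATAC-seq uses the Tn5 transposase, which cuts and tags DNA that nucleosomes leave exposed, so that promoters and enhancers give local pile-ups of reads that a peak caller reports as peaks. In fibroblasts, accessible promoters are shared by many cell types, whereas accessible sites away from promoters, many of them enhancers, vary more between cell states. In multi-copy stretches of the genome a short read can match several places, so peaks there are uncertain wherever the copies are near-identical.

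Some of the knockout-only regions lay among such copies. To show how alike these loci are, the 200 bases before the start of genes in 3 groups of neighbouring knockout-only regions are given from the RefSeq promoter windows of GRCm38.p6, which has the coordinates of mm10. These windows are near the regions and are not the regions themselves, and the genes were chosen after the groups had been seen. Capitals mark the bases at which Speer4c and Speer4e differ. Over the whole 300-base windows 296 bases were identical, and Speer4c matched Gm17019 at 294 of 300. Speer4c and Speer4e belong to a family of spermatogenesis-associated glutamate-rich proteins. The window of Gm4303 was the same as that of its neighbour Gm4307 at all 300 bases, and Gm4301 and Gm4312 likewise matched at 300 of 300.

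Speer4c, chr5:15714272-15714471, minus strand: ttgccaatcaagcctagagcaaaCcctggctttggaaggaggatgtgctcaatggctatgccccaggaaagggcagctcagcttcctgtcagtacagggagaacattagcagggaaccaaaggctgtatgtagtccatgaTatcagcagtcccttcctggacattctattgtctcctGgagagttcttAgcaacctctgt

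Speer4e, chr5:14938476-14938675, minus strand: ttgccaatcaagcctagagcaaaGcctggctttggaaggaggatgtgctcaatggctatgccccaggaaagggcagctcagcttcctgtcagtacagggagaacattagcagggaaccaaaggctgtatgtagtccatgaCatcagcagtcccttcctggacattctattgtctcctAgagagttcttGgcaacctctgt

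Gm4303, chr10:100345772-100345971, plus strand, identical in Gm4307: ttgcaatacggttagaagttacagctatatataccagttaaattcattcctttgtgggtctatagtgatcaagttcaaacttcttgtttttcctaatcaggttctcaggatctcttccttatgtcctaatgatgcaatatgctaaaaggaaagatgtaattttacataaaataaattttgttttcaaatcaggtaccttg

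Other knockout-only regions covered promoters of known regulators. The stretches of 4 of them that lie before the gene's start are shown, from the same RefSeq windows. Each is a part of the region itself. Capitals mark a match to an SP/KLF motif (GGGCGG or CCGCCC) or to an NFY motif (CCAAT or ATTGG), searched on both strands. The Ctcf stretch ran from 250 to 2 bases before the start, was 77.9% G or C and held 1 SP/KLF match. The Tead3 stretch ran from 228 to 57 bases before the start and also held 1 SP/KLF match. The Epha4 stretch ran from 134 bases before the start to the base before it, with 1 NFY match, and the Bhlhe41 stretch ran from 158 to 9 bases before the start with neither motif. Stretches at Ddr1 and Hmga2, of 110 and 26 bases, also held neither motif and are not shown. All 4 regions shown had a weaker-ranked peak in at least 1 wild-type list as deposited.

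Ctcf, chr8:105636288-105636536, plus strand: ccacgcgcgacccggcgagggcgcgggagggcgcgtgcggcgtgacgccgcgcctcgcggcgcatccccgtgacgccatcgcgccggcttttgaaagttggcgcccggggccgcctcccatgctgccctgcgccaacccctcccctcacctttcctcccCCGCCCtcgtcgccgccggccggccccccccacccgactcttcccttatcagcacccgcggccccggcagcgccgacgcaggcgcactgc

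Tead3, chr17:28350862-28351033, minus strand: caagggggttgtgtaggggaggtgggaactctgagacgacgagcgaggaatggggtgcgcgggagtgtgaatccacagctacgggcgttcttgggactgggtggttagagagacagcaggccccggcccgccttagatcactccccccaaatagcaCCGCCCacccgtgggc

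Epha4, chr1:77515089-77515222, minus strand: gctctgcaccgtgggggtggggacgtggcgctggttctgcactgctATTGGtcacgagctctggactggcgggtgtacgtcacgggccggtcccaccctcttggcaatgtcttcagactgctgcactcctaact

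Bhlhe41, chr6:145865429-145865578, minus strand: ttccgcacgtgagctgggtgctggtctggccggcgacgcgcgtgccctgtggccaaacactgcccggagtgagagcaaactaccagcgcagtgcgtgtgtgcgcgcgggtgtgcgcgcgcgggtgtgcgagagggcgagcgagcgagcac

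The deposited lists held 13877 and 24292 peaks in the knockout libraries, against 33721 and 18511 in the wild-type libraries. The files give no read counts, so sequencing depth is unknown. Cutting to equal length kept all peaks of knockout library 1, 57.1% of knockout library 2, 41.2% of wild-type library 1 and 75.0% of wild-type library 2. The weakest peak kept therefore had a −log10 q of 3.01 and 12.6 in knockout libraries 1 and 2, against 23.7 and 9.62 in wild-type libraries 1 and 2. A region at the same strength can thus be kept in one list and dropped from another. The gene-end peaks of 10 fibroblast markers numbered 3 and 4 in the deposited knockout lists, against 8 and 6 in the wild-type lists. Pdgfrb and Twist1 had one in both wild-type lists and in neither knockout list, Col3a1 and Thy1 had one in wild-type library 1 alone, and Pdgfra and Prrx1 had none in any list. No gene-end peak was present in any list for the epithelial, endothelial and pluripotent markers, while 1 immune marker (Spi1) and 1 neural marker (Tubb3) had a peak in wild-type library 1 and in no other list. An ATAC peak cannot check the knockout itself. Ranbp2 at chr10:58446852-58494155 had a region at its end with a peak from all 4 libraries, held none of the knockout-only regions, and was 211.6 kb from the nearest of them.

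The knockout-only regions were mostly of middle to low strength in the knockout lists. A rank counts from 1, the strongest peak of a deposited list. The ranks in knockout library 1 ran from 876 to 13854 with a median of 9222, and those in knockout library 2 from 1753 to 13875 with a median of 10446.5. The fold enrichment, the authors' ratio of signal at a peak's summit to background near it, had medians of 6.12 and 7.40 in the knockout libraries. The medians over all kept peaks of these 2 libraries were 7.28 and 9.21. Both knockout libraries ranked 4 of the 1016 regions at 3469 or better and 76 at 6938 or better. The ranks in the 2 knockout libraries had a Spearman correlation of 0.326 over the 1016 regions, a description of regions within the same libraries, and differed by a median of 2091.5 places.

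Most of the regions also had a peak in a wild-type list as the authors deposited it. In the full deposited lists 895 of the 1016 (88.1%, Wilson 95% interval 86.0 to 89.9%) had a lower-ranked wild-type peak beyond the length limit. Intervals here and below cover counting error only, and regions are not replicates of a genotype. Wild-type library 1, the longest list, had such a peak in 880 regions, at ranks from 13899 to 33522 with a median of 19892.5. Wild-type library 2 had one in 372 regions, at ranks from 13878 to 18443 with a median of 15870. A lower rank was not always a lower −log10 q, because the lists differ in length. The median −log10 q at the regions was 9.71 and 17.7 in knockout libraries 1 and 2, against 14.8 in wild-type library 1 and 7.60 in wild-type library 2 where these had a peak. Both wild-type lists had such a peak in 357 regions (35.1%), and neither had one in 121 regions (11.9%, 10.1 to 14.0%). Those 121 lay at a gene end, meaning no more than 1 kb from the first or last base of a protein-coding gene, in 7 cases (5.79%). Of the 895 regions with a wild-type peak, 131 (14.6%) did.

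**Figure D1:**
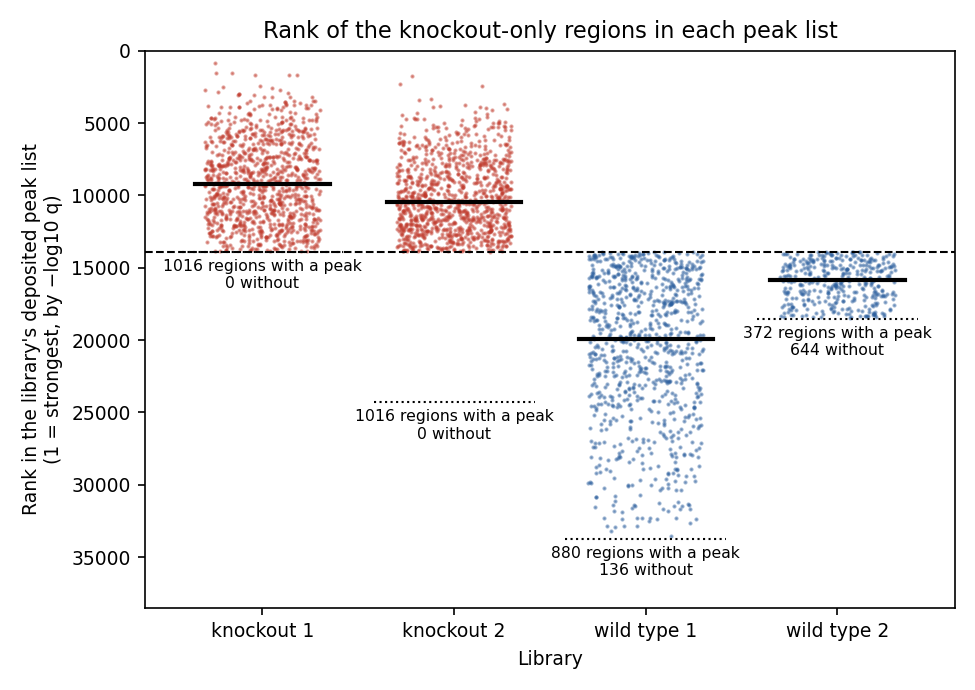
Each point is 1 knockout-only region, placed by its rank in a library's deposited peak list (vertical axis, rank 1 at the top) for the 2 knockout and the 2 wild-type libraries (sideways scatter has no meaning). Thick bars are medians over regions with a peak, the dashed line is the limit of 13877 peaks and dotted lines are the ends of the lists. The knockout points fill the lists above the limit, and the wild-type points lie below it for 880 and 372 of the 1016 regions.

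Regions near the limit show how thin it is. Among the regions just inside it, the wild-type rank was 13878 in wild-type library 2, in a stretch of chromosome 13 with no gene within 100 kb, and 13893 in that library in or near Parp1, which makes poly-ADP-ribose at DNA breaks. Just outside it were a region in or near Trim56 with a rank of 13867 in wild-type library 2 and a region in or near Edem1 with a rank of 13872 in wild-type library 1. The weakest knockout peaks inside were at rank 13854 in knockout library 1, in or near the spectrin gene Sptbn1, and at rank 13875 in knockout library 2, in or near the inositol hexakisphosphate kinase gene Ip6k3.

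The fold enrichment did not follow the rank across libraries. Where wild-type library 1 had a lower-ranked peak, its deposited fold was above the folds of both knockout libraries in 236 of 880 regions (26.8%) and below both in 367 (41.7%). In wild-type library 2 it was above both in 17 of 372 regions (4.57%) and below both in 220 (59.1%). Each fold is over the background of its own library, so these folds are not on a common scale and no difference in accessibility is read from them. Cald1, the actin-binding caldesmon, shows the case of a higher wild-type fold. A region inside the gene had folds of 5.22 and 7.01 in the knockout libraries and 9.49 in wild-type library 1, with ranks of 12845 and 13367 in the knockout lists and 14542 in the wild-type list.

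How far each library set the group was read by leaving it out of the rule. Without knockout library 1 the rule took 2080 of the merged regions, of which 1016 (48.8%) had a peak in that library, while 69.0% of all merged regions did. Without knockout library 2 it took 2885, of which 35.2% had a peak in that library, against 69.3% of all merged regions. Without wild-type library 1 it took 1505, of which 67.5% lacked a peak there, while 30.1% of all merged regions did. Without wild-type library 2 it took 1459, of which 69.6% lacked a peak there, against 30.5%. The shares over all merged regions include regions with peaks from all 4 libraries. All these shares rest on the kept lists that the rule used, so they are a description and no test of agreement between libraries. The merged regions were not formed anew here.

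Knockout-only regions were largely away from gene ends. Of the 1016, 138 (13.6%, 11.6 to 15.8%) were at a gene end, against 328 of 1233 wild-type-only regions (26.6%, 24.2 to 29.1%), 53.5% of the regions with peaks from all 4 libraries and 38% (37.3 to 38.7%) of all merged regions. The rule did not use the position of a region, but it did use peak strength, and the part of peak strength in these shares was not tested. The intervals treat regions as independent, so they are no test of a difference between groups. The knockout-only share was 4.44% with lists as deposited, and 19.9% without wild-type library 1. The median distance from a knockout-only region to the nearest gene end was 16.8 kb, compared with 11.5 kb for wild-type-only regions and 5.28 kb for all merged regions. Inside a protein-coding gene but away from its ends lay 407 of them (40.1%), compared with 38.7% of wild-type-only and 31.5% of all merged regions. Outside genes and away from ends lay 471 (46.4%), compared with 34.7% of wild-type-only and 30.5% of all merged regions. They were narrow, with a median width of 194 bp (98 to 1031 bp), against 232 bp for wild-type-only and 231 bp for all merged regions. The kept peaks had median widths of 164 and 217 bp in the knockout libraries, against 260 and 201 bp in the wild-type libraries, and the part of peak width in these shares was not tested.

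**Figure D2:**
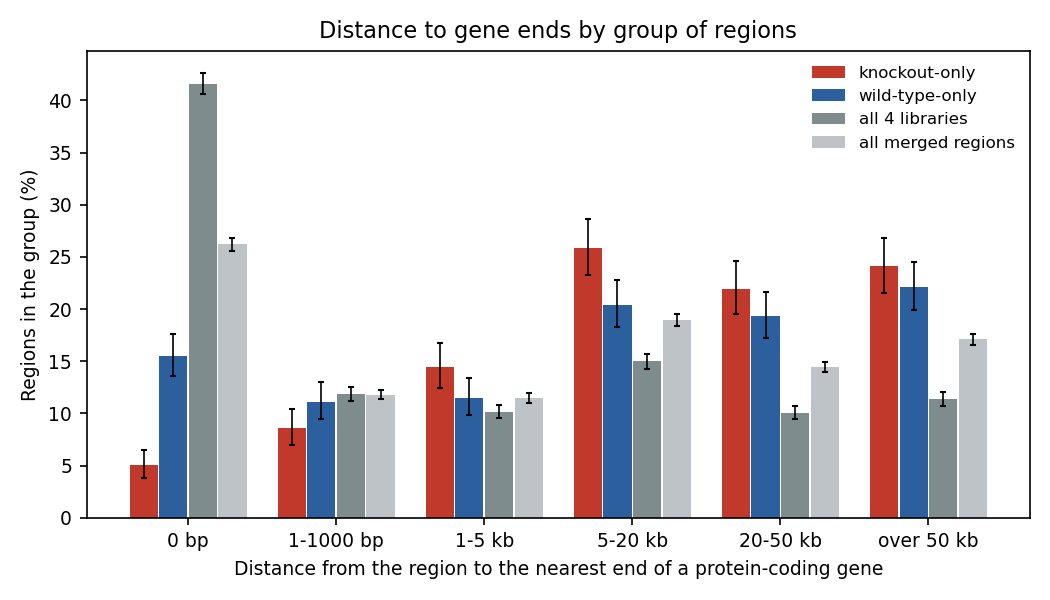
Bars give the percent of regions (vertical axis) by distance to the nearest end of a protein-coding gene (horizontal axis) for knockout-only, wild-type-only, all-4-library and all merged regions, with Wilson 95% intervals. Knockout-only regions touched a gene end in 5.02% of cases, against 15.5% of wild-type-only regions. More than 50 kb away lay 24.1% of knockout-only, 22.1% of wild-type-only and 17.1% of all merged regions.

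Regions were ordered by mean rank percentile, the average over the 2 knockout libraries of a region's place as a percent of the deposited list. The 2 lists differ in length, so this order is not that of the mean rank. The 15 best-placed regions had ranks from 876 to 4205 in knockout library 1 and from 1753 to 6524 in knockout library 2. Wild-type library 1 had a lower-ranked peak in 12 of them and wild-type library 2 in 8, and 10 lay inside a protein-coding gene. The best-placed was inside Smo, the membrane protein that relays the Hedgehog signal, at chr6:29748843-29748948. Its ranks were 876 and 2303 in the knockout libraries, with folds of 10.1 and 10.4, and neither wild-type list had a peak there, nor at the region inside Rras2, a Ras-family GTPase, at chr7:114060759-114060859 (knockout ranks 2570 and 6144). The region inside Bcl2l1, the gene of the anti-apoptotic protein BCL-XL, at chr2:152785550-152785907 had ranks of 1544 and 1753 in the knockout libraries, against 18750 and 16629 in the wild-type libraries. Its folds were 10.6 and 12.8 in the knockout libraries and 6.37 and 5.64 in the wild-type libraries. The region was chosen for its knockout ranks and folds share no scale across libraries, so no difference is read from this order. The same holds for the folds of other regions given below. A region inside Ctnnbip1, an inhibitor of β-catenin binding to TCF factors in Wnt signalling, had folds of 8.79 and 12.3 in the knockout libraries and 6.09 and 5.72 in the wild-type libraries. In Zfp469, a zinc finger gene linked to the cornea in humans, the ranks were 3166 and 2409 in the knockout libraries and 29307 in wild-type library 1, with no peak in wild-type library 2. The region inside Palmd, the gene of palmdelphin, came closest to the limit, with ranks of 1518 and 5550 in the knockout libraries and 13917 and 17501 in the wild-type libraries. The others were in or near Mcc, Sh3tc2, Gkn1, Lmntd1, Gm44064, Pwwp2b, Sfi1 and Gm4981, and 1 on chromosome 18 had no gene within 100 kb.

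Genes were also read by function, from 21 lists with 596 matched genes. A gene counts for a region that it contains, or to which it is the nearest protein-coding gene within 100 kb. Of the listed genes 67 (11.2%) had a knockout-only region, against 3.62% of all 21627 protein-coding genes, and 89 (14.9%) had a wild-type-only region, against 4.80% of all genes. Among genes with any merged region the knockout-only shares were 15% of listed genes and 7.59% of all genes. The listed genes thus had more regions of both kinds than genes in general, and the lists had been written with results of these data known. Of the 21 lists 18 had a gene with a knockout-only region. The 17 SUMO pathway, 19 interferon and 39 Hox genes had none, where 2, 2 and 1 of them had a wild-type-only region.

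**Figure D3:**
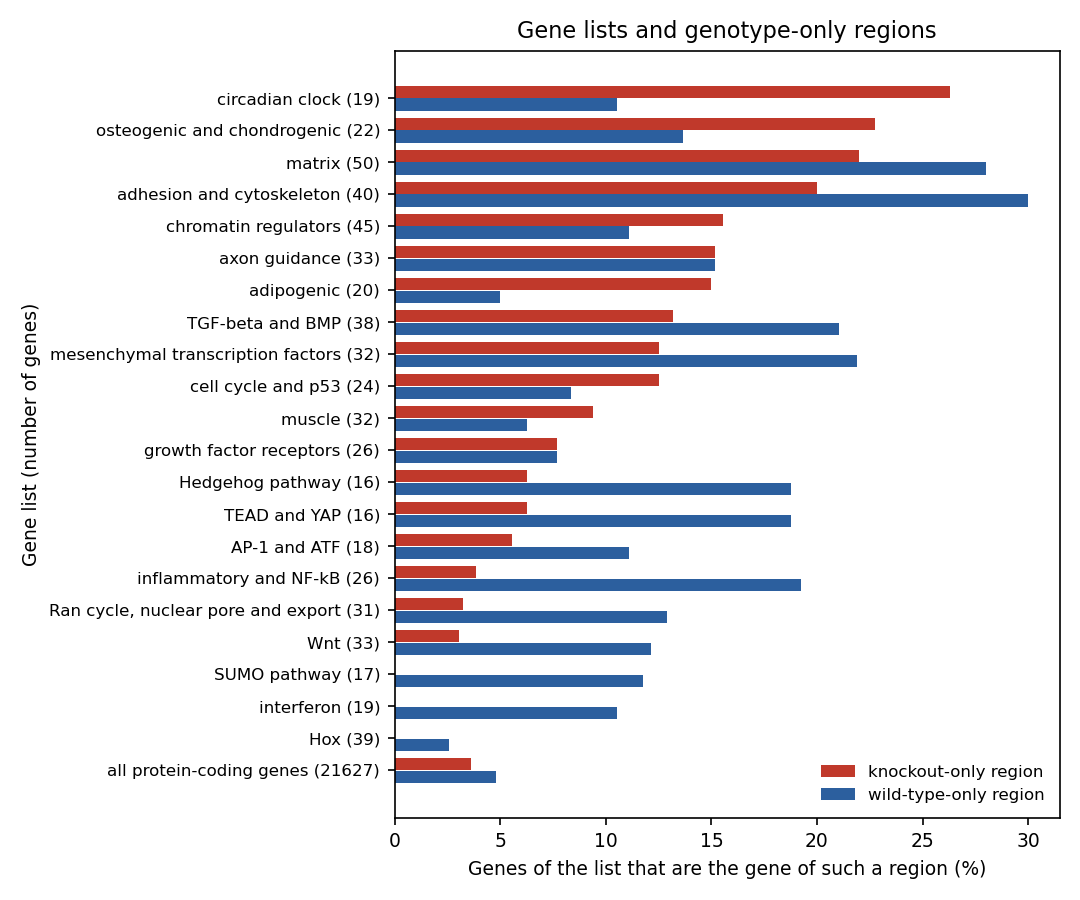
Bars give the percent of each list's genes (horizontal axis) that are the gene of a knockout-only or a wild-type-only region, for 21 lists (number of matched genes in brackets) and for all protein-coding genes in the bottom row. Circadian clock genes lead for knockout-only regions with 5 of 19, and adhesion genes for wild-type-only regions with 12 of 40.

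Of 50 matrix genes 11 had a knockout-only region and 14 a wild-type-only region, and none of the 12 knockout-only regions was at a gene end. They belonged to collagens (Col4a1, Col6a3, Col8a1), to the elastic fibre proteins Eln and Fbn1, to the proteases Adamts1, Adamts12 and Mmp14, and to the secreted matrix proteins Sparc, Thbs2 and Tnc. In Fbn1, which encodes fibrillin, the region at chr2:125452617-125453025 had ranks of 2707 and 7083 in the knockout libraries and 22661 in wild-type library 1. The region inside Col8a1 had ranks of 5889 and 4841 in the knockout libraries, with folds of 8.38 and 12.2, and no peak in either wild-type list. Of 40 adhesion and cytoskeleton genes 8 had a knockout-only region and 12 a wild-type-only region. Among the 8 were Actn4, Cobl, Diaph1, Itgb5, Ptk2, Tln1 and Vcl, which include talin and vinculin, the proteins that tie integrins to actin. The Tln1 region had ranks of 9537 and 10387 in the knockout libraries and no wild-type peak. Acta2, Cald1 and Mrtfb stood for the muscle list with 3 of 32 genes, where 2 had a wild-type-only region. The region near Acta2, smooth muscle actin, had ranks of 3754 and 9999 in the knockout libraries, against 14567 and 14053 in the wild-type libraries, near the limit in both.

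Among signalling genes the TGF-beta and BMP list had 5 of 38 genes with a knockout-only region and 8 with a wild-type-only region. The 5 were the latent TGF-beta binding protein Ltbp1, the signal transducer Smad3, the inhibitory Smads Smad6 and Smad7, and the repressor Ski. The Smad6 region had ranks of 6217 and 7925 in the knockout libraries and 20024 in wild-type library 1. Axon guidance had 5 of 33 genes in each direction, with the Eph receptors Epha2 and Epha4, the semaphorin receptors Nrp1 and Plxna2, and the netrin receptor Unc5c. The Epha4 promoter region had ranks of 8521 and 7844 in the knockout libraries, against 26998 and 17640 in the wild-type libraries, well below the limit in both. The collagen receptor gene Ddr1 and the growth factor gene Pdgfb were the 2 of 26 growth factor receptor and ligand genes, where 2 had a wild-type-only region. Smo was the only 1 of 16 Hedgehog genes, Axin1, a scaffold of the β-catenin destruction complex, the only 1 of 33 Wnt genes, and the chemokine gene Ccl2 the only 1 of 26 inflammatory genes, where 3, 4 and 5 genes of these lists had a wild-type-only region.

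Among nuclear genes, 5 of 19 circadian clock genes had a knockout-only region and 2 had a wild-type-only region. These were the activator Arntl, the repressor Cry2, the CLOCK-binding protein Cipc and the repressors Bhlhe40 and Bhlhe41. The Cry2 region at chr2:92428019-92428201 had ranks of 5548 and 4434 in the knockout libraries and 16144 in wild-type library 1. The Cipc region had ranks of 6221 and 5244 in the knockout libraries, with folds of 7.70 and 10.7, and no wild-type peak. At the Bhlhe41 promoter the ranks were 6998 and 9404 in the knockout libraries and 14560 in wild-type library 1, and that wild-type fold, 8, was above the knockout folds of 7.16 and 7.08. Chromatin regulators had 7 of 45 genes, namely Arid1b, Chd2, Ctcf, Hdac4, Hmga2, Tet1 and Tet3, and 5 genes with a wild-type-only region. The Ctcf promoter, of the insulator protein CTCF, was a borderline member with ranks of 13064 and 12365 in the knockout libraries, against 20920 and 13969 in the wild-type libraries. The mesenchymal transcription factor genes Klf2, Osr1, Prrx1 and Zeb1 were 4 of 32, where 7 had a wild-type-only region. Of 22 bone and cartilage genes 5 had a knockout-only region, among them Col2a1, Sox5, Sox6 and Spp1, and 3 had a wild-type-only region. The remaining lists gave Cebpb, Dlk1 and Lpl among 20 adipogenic genes, Ccnd1, Ccne1 and Mdm4 among 24 cell cycle and p53 genes, Maf among 18 AP-1 and ATF genes, and Tead3 among 16 TEAD and YAP genes. Wild-type-only regions were found at 1 adipogenic, 2 cell cycle and p53, 2 AP-1 and ATF, and 3 TEAD and YAP genes. The Tead3 promoter was a borderline member, with ranks of 13844 and 11362 in the knockout libraries, against 20888 and 16635 in the wild-type libraries. Its folds were 3.62 and 5.72 in the knockout libraries and 5.96 and 5.43 in the wild-type libraries. Of the 31 matched Ran cycle, nuclear pore and export genes, only Ran had a knockout-only region, 0.335 kb from the gene's end, and 4 had a wild-type-only region. Its ranks were 12531 and 8697 in the knockout libraries, against 14956 and 14511 in the wild-type libraries.

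The 10 best-ranked regions at gene ends were at Sh3tc2, Gm4981, Ap1s1, Bmf, Mta3, Duxf3, 4931408C20Rik, Gm40363, Gpr39 (at the end of Lypd1) and Gm4307. Ap1s1, a subunit of a clathrin adaptor, was the only 1 of these 10 with no wild-type peak, and had ranks of 5609 and 4662 in the knockout libraries. At Bmf, a pro-apoptotic BCL2 relative, the ranks were 5730 and 5209 in the knockout libraries, against 13998 and 14652 in the wild-type libraries. Gm4307 and its neighbour Gm4303, whose starts share the same printed sequence, each had a knockout-only region 111 bp wide and 0.856 kb from the gene. The sequences of the regions themselves were not examined.

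The authors' deposited table of knockout-enriched regions has 189 entries. It was made from the same libraries and is therefore not independent. Of the 1016, 61 (6%, 4.70 to 7.64%) overlapped that table, covering 60 of its 189 entries (31.7%, 25.5 to 38.7%), of which 174 lie on chromosomes 1 to 19 and X. Of the 1233 wild-type-only regions 0 overlapped it. The overlap of all merged regions with either of the authors' tables was not counted, so these counts have no background share beside them. The share of knockout-only regions on the authors' deposited table was 3.17% without knockout library 1, 2.42% without knockout library 2 and 2.50% with lists as deposited. None of the 1016 overlapped the authors' deposited table of 190 wild-type-enriched regions (upper bound of the 95% interval 0.377%), of which wild-type-only regions covered 23 (12.1%). Of the 61 regions 3 were at a gene end, 54 had a lower-ranked wild-type peak, and 11 were on chromosome 1 and 8 on chromosome 17. Chromosomes 1 and 17 held 96 and 61 of the 1016 knockout-only regions. The 10 best-ranked of the regions on the authors' knockout table were in or near Mas1, Fat2, Rarb, Ankrd60, Patj, Tet3, Cops7a, Galnt2 and Brd2, with 1 on chromosome 1 that had no gene within 100 kb. The region inside Rarb, the retinoic acid receptor beta gene, at chr14:16545122-16545291 had ranks of 4350 and 5129 in the knockout libraries, with folds of 9.99 and 12.1, against a rank of 28933 and a fold of 5.35 in wild-type library 1. In Tet3, a methylcytosine dioxygenase gene, the ranks were 2948 and 8223 in the knockout libraries and 20049 in wild-type library 1.

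A set of the regions lay in clusters. Joining regions no more than 50 kb apart gave 16 clusters of at least 4 knockout-only regions, with 116 of the 1016 regions (11.4%), compared with 3 clusters and 12 of 1233 wild-type-only regions (0.973%). The size limit was set after the data had been seen. Lone regions numbered 786. The clusters were on chromosomes 8 (6 clusters), 5 (3), 4 and 10 (2 each), 6, 7 and 11 (1 each), and covered 1255 kb in all. They held 302 merged regions, of which 116 were knockout-only, 0 wild-type-only and 41 present in all 4 libraries.

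The largest clusters were at Speer4c and Speer4d on chromosome 5, with 16 regions, at Sfi1 on chromosome 11 and at 9530057J20Rik on chromosome 8, with 15 each. In the Speer4c and Speer4d cluster at chr5:15604876-15712068, the kept lists held 35 and 27 peaks in the knockout libraries, against 5 and 9 in the wild-type libraries. The Sfi1 cluster at chr11:3127006-3198379 held 31 and 29 kept peaks in the knockout libraries, against 4 and 8 in the wild-type libraries. Sfi1, which encodes a centrin-binding protein of the centrosome, had the most knockout-only regions of any gene. The others were at Speer4e with Gm17019, at predicted genes, at the zinc finger genes Zfp990, Zfp993, Zfp868 and Rex2, at Gm40363 with Pdia4, at Gm4301 to Gm4312, at a stretch of chromosome 7 with no gene within 100 kb, and at Duxf3, a gene of the double homeobox Dux family that acts at genome activation in mouse embryos. The 12 genes with the most knockout-only regions held 80 of them, and all but Sfi1 and Zfp990 have Speer, Gm or Rik names. The nearest gene had a predicted or clone name for 10.5% of knockout-only regions, compared with 1.70% of wild-type-only and 4.27% of all merged regions. Pseudogene spans overlapped 3.35% of knockout-only regions, compared with 0.973% of wild-type-only and 1.24% of all merged regions.

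Over the 16 clusters the kept lists held 269 and 225 peaks in the knockout libraries, against 51 and 71 in the wild-type libraries. The clusters were built from regions chosen on these kept peaks, so this order restates the choice. Peak counts in the whole deposited lists, which differ in length, did not keep this order, with 269 and 390 in the knockout libraries, against 349 and 145 in the wild-type libraries. As shares of the deposited lists they did keep it, with 1.94% and 1.61% in the knockout libraries, against 1.03% and 0.783% in the wild-type libraries. The deposited lists include the kept peaks that chose the clusters, so these shares are no separate support. A wild-type peak beyond the length limit was present at 107 of the 116 regions. Their median fold was 4.38 and 4.76 in the knockout libraries, compared with 6.29 and 7.56 for the 900 regions outside clusters, while their median knockout ranks, 8405 and 10248.5, were no worse than the 9304.5 and 10468 outside. With peaks ranked by fold in place of −log10 q, 23 of the 116 clustered regions (19.8%) overlapped a region that was again knockout-only, compared with 628 of the 900 others (69.8%). No label or header says how the authors placed reads that match several copies, and the part of such reads in these clusters was not tested.

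**Figure D4:**
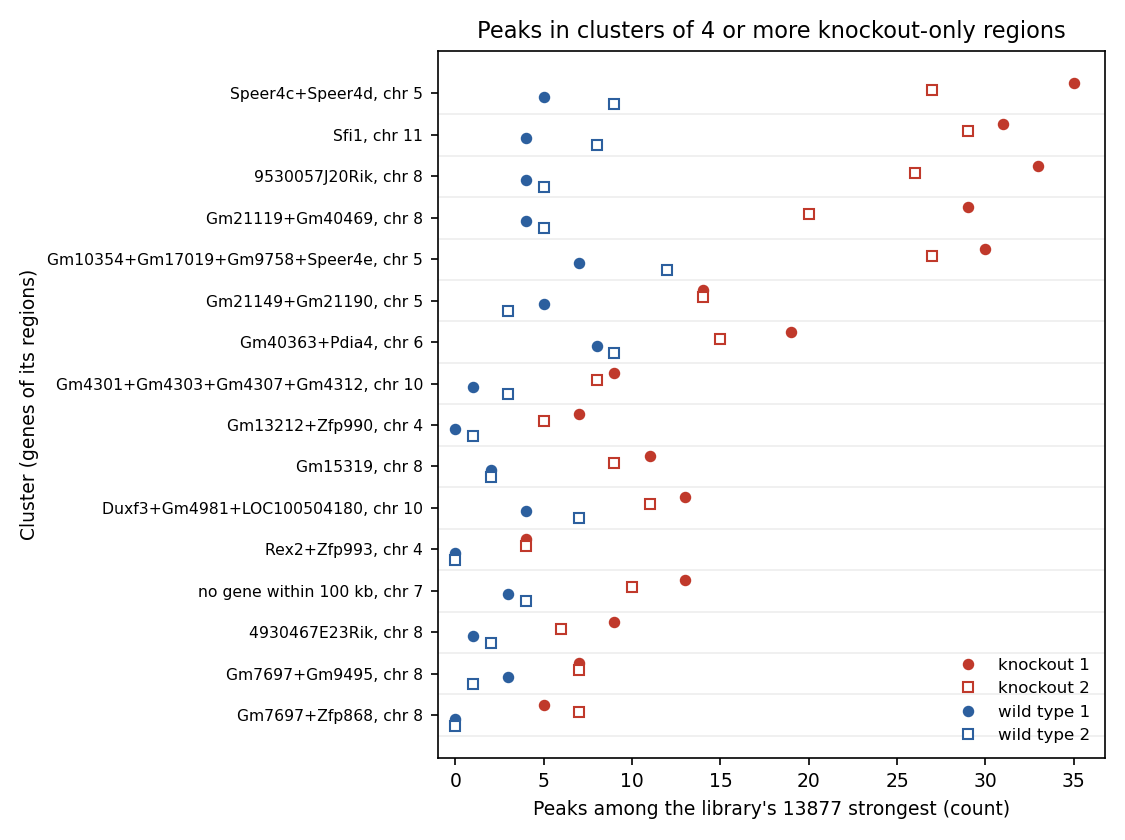
Each row is 1 of the 16 clusters of at least 4 knockout-only regions, named by the genes of its regions, and points give the number of peaks (horizontal axis) among the 13877 strongest of each library. The rows were chosen for knockout-only kept peaks, which sets the order of knockout (red) and wild-type (blue) points, and the counts reach 35 in a knockout library and 12 in a wild-type library.

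The regions were spread unevenly over chromosomes. Chromosome 8 had the highest share of its merged regions as knockout-only, with 100 of 1169 (8.55%, 7.08 to 10.3%) against 58 wild-type-only (4.96%). Of those 100 regions 43 were in clusters, and the other 57 came to 4.88% of the chromosome's regions. Counted outside clusters in the same way, the share ran from 2.34% on chromosome 9 to 7.65% on chromosome 1. Chromosome 1 had 96 knockout-only regions (7.65%, 6.30 to 9.25%) against 58 wild-type-only (4.62%), and none of the 96 was in a cluster. Chromosome 17 had 61 (6.29%) against 40 wild-type-only (4.12%). On the low side chromosome 9 had 24 (2.34%, 1.58 to 3.46%) against 96 wild-type-only (9.37%), and chromosome 13 had 23 (2.84%, 1.90 to 4.22%) against 81 (9.99%). Chromosomes 19, 10 and 15 had 17, 36 and 42 knockout-only against 41, 91 and 90 wild-type-only regions. Knockout-only regions outnumbered wild-type-only regions on 7 chromosomes, were fewer on 12 and equal on chromosome 3. The number of copies of each chromosome in the cells was not measured, and its part in these shares was not tested.

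**Figure D5:**
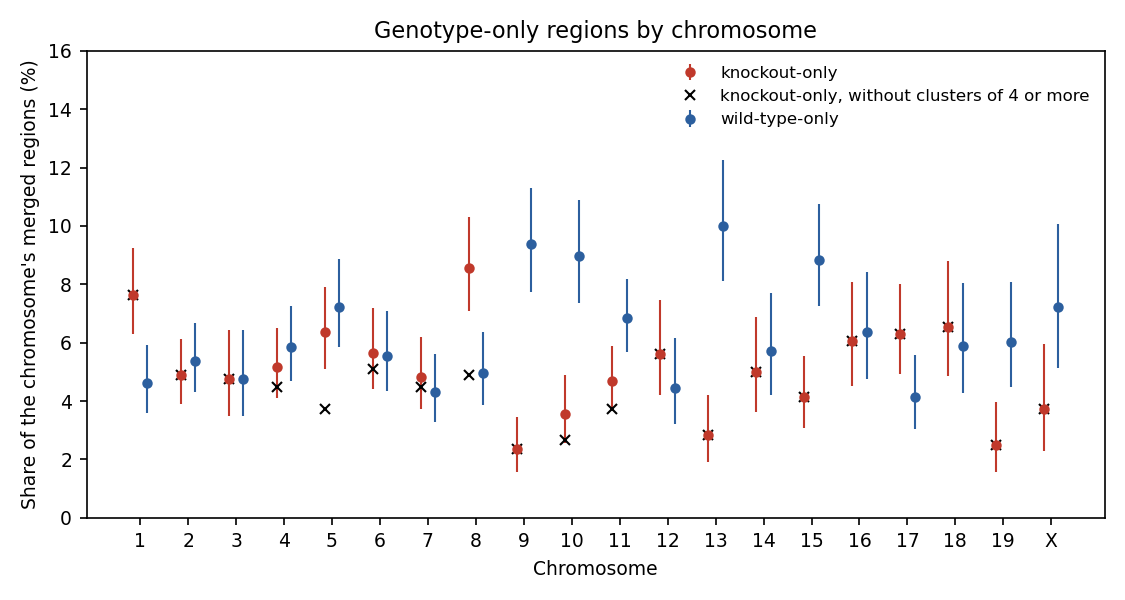
Points give the percent of each chromosome's merged regions (vertical axis) that were knockout-only (red) or wild-type-only (blue), with Wilson 95% intervals, and crosses give the knockout-only share after leaving out regions in clusters of at least 4. Chromosomes 8 and 1 are highest for knockout-only regions, chromosome 8 drops to 4.88% without clusters, and chromosomes 9 and 13 show the widest gap in the other direction.

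Of the 976 regions off chromosome 18, 75 (7.68%) overlapped a listed RefSeq promoter window, which runs from 250 bases before to 50 bases after a start, and these overlapped 89 windows of 83 genes. The windows are not listed for every gene, so this share is given as a count and is not compared between groups. The median G and C content of the 89 windows was 58.3%, compared with 59.7% for 298 windows at wild-type-only regions, 62.0% for the 7574 windows at any merged region and 53% for all 32619 listed windows. Their median number of CpG dinucleotides was 17, compared with 19 at wild-type-only regions, 23 at any merged region and 7 over all windows. Knockout-only promoters thus lay between open promoters in general and all promoters in base composition.

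The same windows were searched on both strands for 14 short motifs. The SP/KLF motif was in 59.6% of windows at knockout-only regions (49.2 to 69.1%), in 70.5% of those at any merged region and in 35.9% of all windows. The NFY motif was in 37.1% (27.8 to 47.5%), 45.6% and 37.6%. The TEAD motif GGAATG was in 22.5% (15 to 32.2%), 11.4% and 14.6%, and in 17.1% at wild-type-only regions. The SOX motif ACAAAG was in 21.3% (14.1 to 31%), 11.4% and 18.7%, and the GATA motif AGATAA in 11.2% (6.22 to 19.5%), 4.42% and 11.2%. The ETS motif CCGGAA was in 27.0% (18.8 to 37.0%), 35.4% and 15%. At wild-type-only regions the shares were 66.4% for SP/KLF, 39.3% for NFY, 15.8% for SOX, 5.37% for GATA and 31.9% for ETS. The other 8 were AP-1 (TGACTCA or TGAGTCA), RUNX (TGTGGT), an NFI site (TTGGCA), an E-box (CAGCTG), a CRE-type site (TGACGT), a CTCF core (CCCTC), C/EBP (TTGCAAC or TTGCAAT) and FOX (TGTTTAC). For each of these 8 the interval at knockout-only regions held the share at any merged region. None of the 14 motifs contains another, although an NFI site can overlap the reverse strand of NFY. With 89 windows the intervals are wide, base composition differs between the groups, and a match is a run of letters and not a shown binding site. A single region, inside the Fc receptor gene Fcgr3 on chromosome 1, overlapped a microRNA hairpin, Mir6546, with ranks of 5737 and 13594 in the knockout libraries, against 18467 and 14080 in the wild-type libraries.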

How the data were processed

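ATAC-seq peaks were deposited as 1 list per library, 2 for knockout and 2 for wild-type cells. Per the submitters' processing notes the build was mm10 and the tools named, without roles, include MACS2 and DiffBind 2.2.12. The files carry no column names and were read as narrowPeak. The deposited score is 10 times the −log10 q in about 99.96% of peaks, and the deposited fold is a ratio over local background. The authors' −log10 q and −log10 p are those of the peak summit. The authors also deposited lists of knockout- and wild-type-enriched regions as positions.

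The members and gene lists were chosen with earlier results of these data known. Peaks were ranked by −log10 q (ties by fold) within each list, the top 13877 kept and merged by an overlap of at least 1 bp with Python 3.11.15 and pandas 2.3.3. The merging recovered all planted regions on simulated lists. Their weak peaks were set far from the limit, so this checks the code and not regions near the limit. No read counts were used here and depth is unknown. No test over libraries was made, since the rule used their values. Genes, lncRNAs and promoters came from RefSeq tables of GRCm38.p6. Distances to gene starts and a check for near-copies over all regions were void, because 75.9% of the regions with a gene had a listed start and chromosome 18 had none. The motif search planned at peak summits needs a genome and was not run, and motifs were counted in promoter windows instead.

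Genes named are Ranbp2 and those of the 15 best-ranked regions by mean rank percentile in the deposited knockout lists. In the same order, those of the 10 best at gene ends and of the 10 best on the authors' knockout list are named. The 10 genes with the most regions (12 with ties) and every listed gene of a region complete them. Of the listed symbols 18 were not matched, and a few listed genes are not reported here. Alternatives tried were list length, ranking by fold, other overlaps, other gene-end windows and leaving out each library.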

Additional observations from a re-analysis of the deposited data

Results flagged for a closer look

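Outside chromosomes 1 to 19 and X, 24 of 207 merged regions were knockout-only and 0 were wild-type-only. These regions lie outside the comparison above and were picked out because genotype-only regions appeared there for knockout alone. Lower-ranked wild-type peaks beyond the length limit were not counted at the 24 regions, so absence of wild-type signal is not shown. The scaffold JH584304.1 held 8 of the 24 and chromosome Y held 3. On JH584304.1 another 48 regions had a peak from all 4 libraries. Whether reads matching several places had a part in these counts was not tested.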

How the results depend on the processing

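The files hold no read counts, absence from a list is absence above that list's threshold, and equal list length does not equalise depth. No paired analysis was possible because the result comes from no test. The motif windows of 100 and 300 bp at peak summits were not run.

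With lists as deposited 360 regions were knockout-only against 1016 at equal length, and 121 of them (33.6%) overlapped members, which is 11.9% of the members. For each library left out the remaining peaks were merged again. The count was then 2082 without knockout library 1 and 2897 without knockout library 2, and ran from 1459 to 2897 over the 4 libraries left out. It was 742 with 10000 peaks per list, 939 with ranking by fold, 1010 with a stricter overlap between peaks, 988 with peaks within 200 bp joined, and 900 without clusters of 4 or more, a setting chosen after seeing the data.

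The gene-end share, 13.6%, was 4.44% with lists as deposited, 9.55% with a window of 500 bp, 17.9% with 2000 bp, and 11.5 to 19.9% with a library left out. Chromosome 8 held 9.84% of the members, 6.82% with ranking by fold, 6.33% without clusters and 8.12 to 9.60% with a library left out. A lower-ranked wild-type peak was present in 88.1%, in 97.3% with 10000 peaks per list, and in 45.6 to 90.0% with a library left out, the lowest without wild-type library 1. The overlap with the authors' knockout list, 6%, was 2.50% with lists as deposited and 2.42 to 4.59% with a library left out. The gene-end windows change their share by definition, and a limit of 10000 leaves more wild-type peaks beyond it. A wild-type library left out was also not searched for lower-ranked peaks. The cause of the other shifts was not tested. The alternatives not named for a share moved it by less than its interval.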
